A study of Mus musculus with 4 samples.

Results

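Ion channel genes of mouse aortic endothelial cells were described in cultures given a macrophage supernatant and in control cultures. The genes were all rows of the count table whose symbol begins with Kcn and a letter, with Trpc, Trpm or Trpv and a digit, with Clcn or Clic and a digit, or is Piezo1 or Piezo2. This symbol rule took 135 of 27179 rows, 131 of them protein coding and 4 long noncoding RNAs. Pore-forming potassium channel subunits made up 77 of them, namely 40 voltage-gated, 15 inward rectifier, 14 tandem-pore (Kcnk) and 8 calcium- or sodium-activated subunits. Another 17 encode accessory potassium channel subunits, 21 TRP channels, 2 Piezo channels, 7 Clcn proteins and 5 Clic proteins. The rule also took Trpc4ap, an adaptor protein, and Trpc5os, an opposite-strand gene, which are not channels.

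The conditioned medium group held mAECs, a murine aortic endothelial cell line, given the supernatant of macrophages positive for TNFα and CD68. The control group held the same line kept in normal medium. Each group had 2 libraries, described as biological replicates, and p-values measure the spread between these libraries only. The labels state no dose, exposure time or source of the macrophages, and the cells are a single cultured line.

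Potassium channels let potassium leave the cell and set the membrane potential, and a more negative potential favours calcium entry, which in endothelium leads to nitric oxide release and vessel relaxation. TRP channels are mostly non-selective cation channels that admit calcium or sodium in response to lipids, temperature, osmotic or mechanical stimuli. Piezo1 opens when the membrane is stretched and is a sensor of blood flow in endothelium. Clcn genes encode chloride channels and chloride-proton exchangers of the surface, endosomes and lysosomes. Clic proteins exist in a soluble and a membrane form, and their action as channels in cells is debated.

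RNA of few channel genes was detected in these cells, and fewer were called changed. At 1 CPM (counts relative to the TMM-scaled library total) or more in both control libraries, 27 of 135 genes were detected, or 20%, against 48.2% of all rows of the table, and the same 27 passed 1 CPM in both conditioned medium libraries. In conditioned medium 2 of 29 tested genes were higher and 0 were lower at an adjusted p under 0.05: Kcnh2, which encodes a voltage-gated potassium channel, 1.34-fold, and Clic4, which encodes a chloride intracellular channel protein, 1.09-fold. That was 6.9% of the tested genes, against 16.8% of all 13897 genes tested with the quasi-likelihood test of edgeR (8.53% higher and 8.23% lower). Whether these shares differ was not tested, and a count of 2 among 29 genes is small. The median absolute log2 fold change was 0.154 in the tested channel genes and 0.13 over all genes. At an unadjusted edgeR p under 0.05 there were 6 higher and 2 lower. The share of all genes at that limit was not counted, so these 8 cannot be called many or few. DESeq2 called 1 gene, Kcnh2, and limma-voom called both, with 0 lower in either tool. Without control replicate 1 the count was 5 of 34 tested (14.7%), against 17.1% of all genes, so that the gap to all genes was then small. Without control replicate 2 it was 3 of 34 (8.82%), against 21.9%. Without conditioned medium replicate 1 or 2 it was 1 of 32, Kcnh2 (3.12%), against 5.71% of all genes without replicate 1 and 4.03% without replicate 2.

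Total counts per library ran from 13815695 to 18005840, so that 3 counts equalled 0.166 to 0.216 CPM. The SD of the log2 ratio within a pair was 0.127 in conditioned medium and 0.154 in control over 11540 well-counted genes, and 0.145 in conditioned medium and 0.144 in control over 19 well-counted channel genes. Of 13 endothelial markers 12 were tested, and 3 of these were higher (Egfl7, Eng and Nos3) and 2 lower (Kdr and Emcn). Cdh5 stood at 2012 and 1986 CPM in conditioned medium, against 1893 and 1922 CPM in control. The tight junction gene Cldn5 had 1 count in all, and Vwf stayed between 2.30 and 3.49 CPM. Of 12 macrophage markers 9 lay under 1 CPM in every library and 5 of those had 0 counts, Adgre1 among them, while Cd68 itself was at 241 and 249 CPM in conditioned medium and 220 and 248 CPM in control.

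The promoter letters of 3 genes are shown because the results turn on them: Kcnh2 and Clic4 are the genes that changed, and Kcnj2, which encodes the inward rectifier Kir2.1 described in endothelium, had 0 counts in every library. Each line is the RefSeq window of GRCm38.p6 from 250 bases before to 50 bases after an annotated start, 5′ to 3′ on the gene's strand, with capitals on the letters GGGCGG, the GC box, or its reverse complement.
Kcnh2 (chr5:24329542-24329841, minus strand): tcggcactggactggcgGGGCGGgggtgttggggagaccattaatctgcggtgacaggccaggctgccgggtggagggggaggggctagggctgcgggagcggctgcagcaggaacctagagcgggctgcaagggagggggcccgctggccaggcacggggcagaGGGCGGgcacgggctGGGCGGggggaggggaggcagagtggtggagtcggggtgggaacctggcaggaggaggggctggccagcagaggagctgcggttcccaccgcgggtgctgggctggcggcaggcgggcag
Clic4 (chr4:135272711-135273010, minus strand): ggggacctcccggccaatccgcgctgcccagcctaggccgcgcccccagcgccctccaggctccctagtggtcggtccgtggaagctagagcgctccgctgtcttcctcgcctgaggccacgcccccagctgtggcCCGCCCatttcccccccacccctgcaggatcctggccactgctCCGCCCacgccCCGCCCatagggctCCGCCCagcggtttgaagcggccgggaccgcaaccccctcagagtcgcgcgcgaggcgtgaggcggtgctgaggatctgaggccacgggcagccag
Kcnj2 (chr11:111065914-111066213, plus strand): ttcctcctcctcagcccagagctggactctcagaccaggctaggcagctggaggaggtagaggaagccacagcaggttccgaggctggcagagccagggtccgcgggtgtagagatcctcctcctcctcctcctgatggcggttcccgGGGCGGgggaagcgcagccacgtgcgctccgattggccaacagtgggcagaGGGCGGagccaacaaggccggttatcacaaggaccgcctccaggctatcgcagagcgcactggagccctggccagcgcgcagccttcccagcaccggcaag
The Kcnh2 window belongs to a start 22.1 kb inside the annotated gene, and the other 2 windows lie at the annotated 5′ end. GC boxes numbered 3 in Kcnh2, 4 in Clic4 and 2 in Kcnj2, and the GC content was 74.3%, 73.3% and 66.7%.

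GC boxes were found on either strand in 14 of 23 detected genes with a promoter entry (60.9%). They were found in 24 of 44 genes below 1 CPM in both control libraries with some counts (54.5%). Among genes with 0 counts they were found in 21 of 38 (55.3%), and in 38.2% of all 27025 genes with an entry. The TATA letters TATAAA were likewise sought on either strand. They were found in 4, 6 and 3 of these channel genes (17.4%, 13.6% and 7.89%), against 15.7% of all. The median ratio of observed to expected CpG was 0.51 in detected genes and 0.40 in those below 1 CPM in control with some counts. It was 0.53 in those with 0 counts, against 0.39 over all genes. Median gene lengths, over all 27, 60 and 48 genes with or without a promoter entry, were 34.6 kb, 39.4 kb and 32.4 kb in the same order. These values are descriptions without a test, and a match says nothing of binding.

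**Figure D1:**
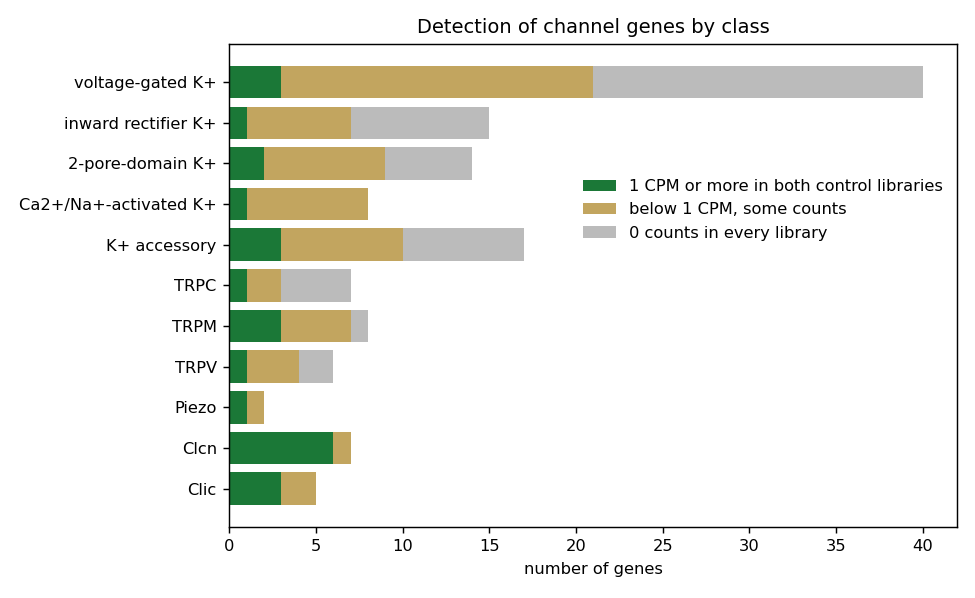
Number of genes per class (horizontal axis) at 1 CPM or more in both control libraries, below 1 CPM in both control libraries with some counts, and with 0 counts in every library. The Clcn class has 6 of 7 genes detected, while the voltage-gated potassium class has 3 of 40.

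Detection differed widely among the classes. Clcn genes were detected in 6 of 7 cases and Clic genes in 3 of 5. The TRP families had 1 of 7 TRPC, 3 of 8 TRPM and 1 of 6 TRPV genes detected, and Piezo 1 of 2. Among pore-forming potassium subunits 3 of 40 voltage-gated, 1 of 15 inward rectifier, 2 of 14 tandem-pore and 1 of 8 calcium- or sodium-activated genes were detected. Accessory subunits had 3 of 17, and the 2 remaining detected genes were Trpc4ap and Kcnq1ot1. Of the 108 others, 48 had 0 counts in all 4 libraries, which allows up to 0.216 CPM at the lowest depth. Just inside the limit lay Kcna5 at 1.56 and 2.46 CPM in control, and just outside it Kcnd3 at 0.745 and 0.821 CPM.

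A few genes held most of the channel RNA. Summed over the 135 genes, levels were 1851 and 1843 CPM in conditioned medium and 1751 and 1734 CPM in control, or 0.173% to 0.186% of all counts. Clic genes alone gave 53.9% to 54.9% of that sum. Per kilobase of exon, the order by level over all libraries was Clic1 (199 CPM per kb), Clic4 (70.5), Piezo1 (22), Clic5 (17.9), the adaptor Trpc4ap (14.7), Trpm7 (10.4), Kcnh2 and Clcn7 (7.91). Further down, Kcnq1 (4.77), Kcne3 (4.29) and Clcn3 (4.22) lay close together, and their libraries overlapped when both groups were pooled. Within conditioned medium Kcnq1, at 5.22 and 5.05, lay above Kcne3 (4.54 and 4.21) and Clcn3 (4.37 and 4.46). In control Kcnq1 was at 4.45 and 4.35, between the Kcne3 libraries (4.68 and 3.73) and above Clcn3 (4.24 and 3.8). Trpm7 and Kcnh2, neighbours in that order, changed places: Kcnh2 was at 11.3 and 11.7 CPM per kb in conditioned medium, above Trpm7 at 10.2 and 9.88, and at 8.25 and 8.94 in control, below Trpm7 at 10.8 in both.

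**Figure D2:**
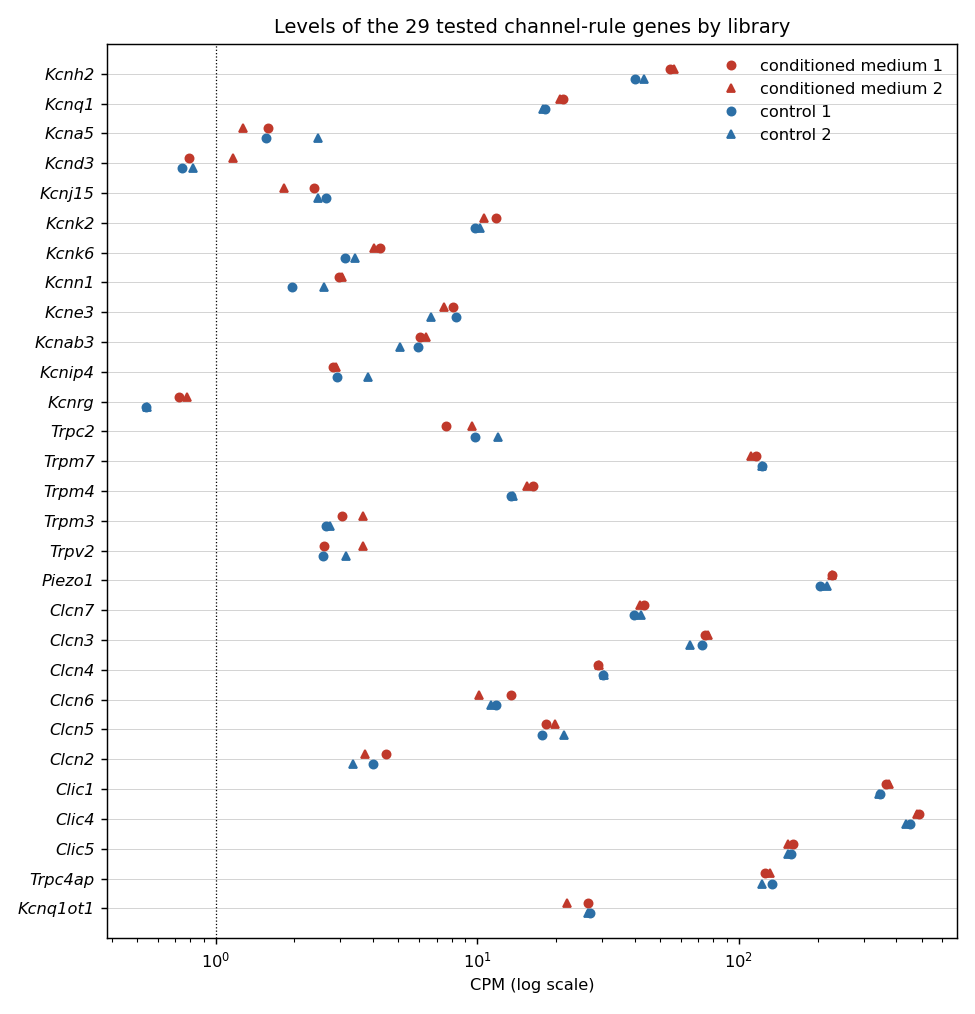
CPM on a log axis of the 29 tested genes, ordered by class and by level per kilobase, with each library as a point and 1 CPM as a dotted line. The libraries of the 2 groups lie close together for most genes, and the levels span Kcnrg at 0.542 CPM to Clic4 at 488 CPM.

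Among voltage-gated potassium channels Kcnh2 was the most abundant and the gene with the smallest adjusted p of all 29. It encodes Kv11.1, known as ERG1, the pore of the rapid delayed rectifier current of the heart, and lies on chromosome 5, 24319589 to 24351684 on the minus strand (mm10). Kcnh2 had 756 and 1023 counts in conditioned medium and 590 and 633 counts in control, or 54.5 and 56.7 CPM in conditioned medium against 40.0 and 43.3 CPM in control. Both conditioned medium libraries were above both control libraries, which held for 28.5% of all genes tested. Its mean was 55.6 ± 1.52 CPM in conditioned medium and 41.6 ± 2.38 CPM in control (SD, n = 2 each), a log2 fold change of 0.42 ± 0.065 (SE), with an edgeR adjusted p of 0.000117. Over 13 alternative settings its log2 fold change stayed between 0.36 and 0.48, and it was called in each of the 13 (adjusted p up to 0.0293, without conditioned medium replicate 2).

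The other 3 tested voltage-gated genes were not called. Kcnq1, which encodes Kv7.1, a slow delayed rectifier, had 21.4 and 20.7 CPM in conditioned medium and 18.2 and 17.8 CPM in control, without overlap between the groups (log2 fold change 0.22 ± 0.094, edgeR adjusted p = 0.118). Kcne3, an accessory subunit that in epithelia holds Kv7.1 open, had 8.08 and 7.48 CPM in conditioned medium and 8.33 and 6.64 CPM in control, and the groups overlapped. The noncoding RNA Kcnq1ot1, imprinted and antisense to Kcnq1, had 26.41 and 22 CPM in conditioned medium and 27.02 and 26.4 CPM in control (edgeR adjusted p = 0.283). It lies on the opposite strand, and as the library kit does not mark strand, reads cannot be told apart over the 3.0% of Kcnq1 exon bases that the pair shares. Kcna5, which encodes Kv1.5, had 22 and 23 counts in conditioned medium and 23 and 36 in control, and Kcnd3, which encodes Kv4.3, stood at 0.794 and 1.16 CPM in conditioned medium and 0.745 and 0.821 CPM in control. The interval of the Kcna5 difference ran from -1.18 to 0.17 on the log2 scale, which covers a 2-fold lower level.

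Inward rectifiers had few counts. Kcnj2 (Kir2.1) and Kcnj8, the Kir6.1 pore of vascular ATP-sensitive channels, had 0 counts in every library. Kcnj15, which encodes Kir4.2, was the single detected member, at 2.38 and 1.83 CPM in conditioned medium and 2.64 and 2.46 CPM in control (edgeR adjusted p = 0.501). Next per kilobase came Kcnj13 with 3 and 2 counts in conditioned medium and 3 and 4 in control, and Kcnj14 with 1 and 1 counts in conditioned medium and 0 and 2 in control. About 49.1% of the exon bases of Kcnj13 are shared with Gigyf2 on the opposite strand.

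Both detected tandem-pore genes encode background potassium channels. Kcnk2 encodes TREK-1, a channel opened by stretch and polyunsaturated lipids, and had 11.8 and 10.6 CPM in conditioned medium against 9.82 and 10.3 CPM in control. Kcnk6 encodes TWIK-2 and had 4.26 and 4.05 CPM in conditioned medium against 3.12 and 3.42 CPM in control. In both genes the conditioned medium libraries were the higher ones, as in 28.5% of all genes tested. Neither gene was called (edgeR adjusted p = 0.472 for Kcnk2 and 0.3 for Kcnk6). Kcnk7 followed with 2 and 6 counts in conditioned medium and 7 and 5 in control.

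The calcium-activated channels best known from endothelium, KCa3.1 and SK3, which open in the hyperpolarization that relaxes small arteries, were below the detection limit. Kcnn4 (KCa3.1) had 1 and 1 counts in conditioned medium and 1 and 1 in control. Kcnn3 (SK3) had 6 and 6 counts in conditioned medium and 1 and 3 in control. Kcnma1, the large-conductance BK pore, had 0 and 1 counts in conditioned medium and 0 and 2 in control. Kcnn1, the SK1 subunit best known from neurons, was the detected member of the class at 2.96 and 3.05 CPM in conditioned medium and 1.96 and 2.60 CPM in control (log2 fold change 0.40 ± 0.251, edgeR adjusted p = 0.311). Kcnu1, a BK relative described in sperm, had 1 and 1 counts in conditioned medium and 2 and 0 in control.

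Of 17 accessory genes, 4 were tested and 0 called by edgeR (0 at an unadjusted p under 0.05, and 0 by DESeq2 or limma-voom). Over all genes tested 16.8% were called, and 0 of 4 genes cannot be told from that share. Kcnab3, a cytoplasmic Kv beta subunit, had 6.06 and 6.37 CPM in conditioned medium and 5.96 and 5.06 CPM in control. Kcnip4, a calcium-binding partner of Kv4 channels, had 2.81 and 2.88 CPM in conditioned medium and 2.91 and 3.83 CPM in control, and neither was called (edgeR adjusted p = 0.538 for Kcnab3 and 0.543 for Kcnip4). Kcnrg, thought to regulate Kv assembly, passed the count filter below 1 CPM at 0.721 and 0.776 CPM in conditioned medium and 0.542 and 0.547 CPM in control. The gene with most counts below the filter was Kcnip3, a relative of Kcnip4, with 15 and 10 in conditioned medium and 5 and 6 in control, named after its values were seen.

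Among TRP channels Trpm7, a magnesium-permeable channel fused to a kinase, was the most abundant. It had 116 and 112 CPM in conditioned medium and 122 and 123 CPM in control, lower in both conditioned medium libraries but not called (log2 fold change -0.11 ± 0.048, edgeR adjusted p = 0.144). Trpm4, a calcium-activated channel for monovalent cations, had 16.4 and 15.5 CPM in conditioned medium and 13.5 and 13.7 CPM in control (log2 fold change 0.23 ± 0.108, edgeR adjusted p = 0.17). Trpm3 had 3.03 and 3.66 CPM in conditioned medium and 2.64 and 2.74 CPM in control. In all 3 TRPM genes the groups did not overlap, as in 57.2% of all tested genes. Trpv2 had 2.60 and 3.66 CPM in conditioned medium and 2.57 and 3.15 CPM in control, with overlapping groups.

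Trpv4, a calcium entry channel of endothelium that responds to osmotic and shear stimuli, was below the detection limit with 3 and 12 counts in conditioned medium and 10 and 10 in control. Trpv1 had 1 and 0 counts in conditioned medium and 1 and 0 in control. The receptor-operated channels of vessels also had few or no counts. Trpc1 and Trpc6 had 0 counts, Trpc4 had 0 and 2 in conditioned medium and 4 and 0 in control, and Trpc5 had 0 and 0 in conditioned medium and 2 and 2 in control. The detected TRPC row was Trpc2, known in mice from pheromone sensing, at 7.58 and 9.59 CPM in conditioned medium and 9.82 and 11.98 CPM in control (log2 fold change -0.33 ± 0.147, edgeR adjusted p = 0.139). Of its exon bases 97.5% are shared with Xntrpc on the same strand, so the level is that of the locus and not of Trpc2 alone. Without control replicate 1 it was called lower (log2 fold change -0.46, adjusted p = 0.0225). The log2 fold change was -0.18 both without control replicate 2 (adjusted p = 0.5) and without conditioned medium replicate 1 (adjusted p = 0.613), and -0.52 without conditioned medium replicate 2 (adjusted p = 0.166).

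Piezo1 followed Clic1 and Clic4 in the order per kilobase of exon. It had 227 and 227 CPM in conditioned medium and 204 and 217 CPM in control, with both conditioned medium libraries above both controls. The log2 fold change of 0.11 ± 0.046 was not called (edgeR adjusted p = 0.115, 95% interval 0.01 to 0.20), and it was called without control replicate 2 (0.155, adjusted p = 0.00344), while without control replicate 1 it was 0.062 (adjusted p = 0.373). Its exons share 24.6% of their bases with Ctu2 on the opposite strand, whose row had 33.2 and 33.1 CPM in conditioned medium and 27.9 and 34.8 CPM in control. Piezo2, the touch channel of sensory neurons, had 3 and 1 counts in conditioned medium and 0 and 2 in control.

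The Clcn genes were broadly detected and 0 of 6 tested were called by edgeR (1 at an unadjusted p under 0.05, and 0 by DESeq2 or limma-voom). With 6 genes this cannot be told from the 16.8% called among all genes tested. Clcn3, an endosomal chloride-proton exchanger, had 74.5 and 76.2 CPM in conditioned medium and 72.5 and 64.9 CPM in control (log2 fold change 0.13 ± 0.060, edgeR adjusted p = 0.134). Without control replicate 1 it was called higher (log2 fold change 0.22, adjusted p = 0.00919), and without control replicate 2 its log2 fold change was 0.06 (adjusted p = 0.593). Clcn7, the lysosomal exchanger that pairs with Ostm1, had 43.4 and 42.0 CPM in conditioned medium and 39.8 and 42.3 CPM in control. Clcn4 had 28.9 and 29.3 CPM in conditioned medium and 30.3 and 30.5 CPM in control. Clcn5, Clcn6 and Clcn2, the other 3 tested, overlapped between the groups, with log2 fold changes of -0.04, 0.01 and 0.14.

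Clic4 was the second gene that changed, by a small amount. It is known for its part in endothelial tube formation and lies on chromosome 4, 135213969 to 135272760 on the minus strand (mm10). Clic4 had 488 and 480 CPM in conditioned medium, against 450 and 435 CPM in control, and the groups did not overlap. The log2 fold change was 0.13 ± 0.042 with an edgeR adjusted p of 0.0397. The call was lost in DESeq2 (adjusted p = 0.145), with a replicate block (0.0511), without conditioned medium replicate 1 (0.377) and without conditioned medium replicate 2 (0.298), and the lowest adjusted p over the alternatives was 0.000321. Its direction was kept in each of the 13, at log2 fold changes of 0.10 to 0.15.

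The other abundant Clic genes were not called. Clic1, a relative found in many cell types, had 366 and 375 CPM in conditioned medium and 348 and 344 CPM in control (log2 fold change 0.10 ± 0.042, edgeR adjusted p = 0.121), and without control replicate 1 it was called (adjusted p = 0.0326). Clic5, which links to ezrin and the actin cortex, had 162 and 154 CPM in conditioned medium and 159 and 154 CPM in control. The 95% interval of its log2 fold change ran from -0.09 to 0.11. Clic3 and Clic6 were below the filter.

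**Figure D3:**
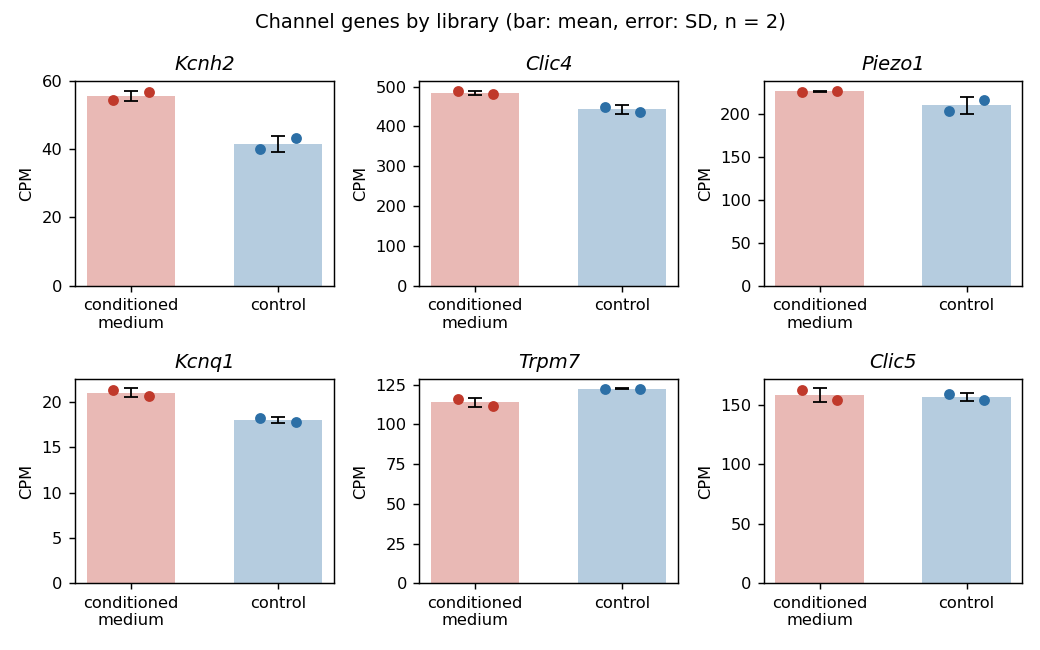
CPM of 6 genes per library, with bars for the mean of 2 libraries, error bars for the SD and points for the libraries. Kcnh2 shows the clearest separation, at 55.6 ± 1.52 CPM in conditioned medium and 41.6 ± 2.38 CPM in control, while Clic5 overlaps.

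Over the 29 tested genes the differences were small. The median log2 fold change was 0.11, with 21 above 0 and 8 below, against a median of 0 over all genes tested. The median absolute log2 fold change was 0.15, against 0.13 over all genes. The groups did not overlap in 19 of 29 genes (65.5%, with 13 higher and 6 lower), against 57.2% of all genes tested. Of the 27 genes not called, 16 had a 95% interval within 1.5-fold either way and 24 within 2-fold. Of the 106 genes below the filter 88 had 10 or fewer counts over all libraries, and the largest total was 36. With no count filter the 58 of them that had counts were fitted too, and 0 were called by edgeR (2 at an unadjusted p under 0.05). DESeq2 tested 27 of the 135 genes, so it could not call most of these 58.

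**Figure D4:**
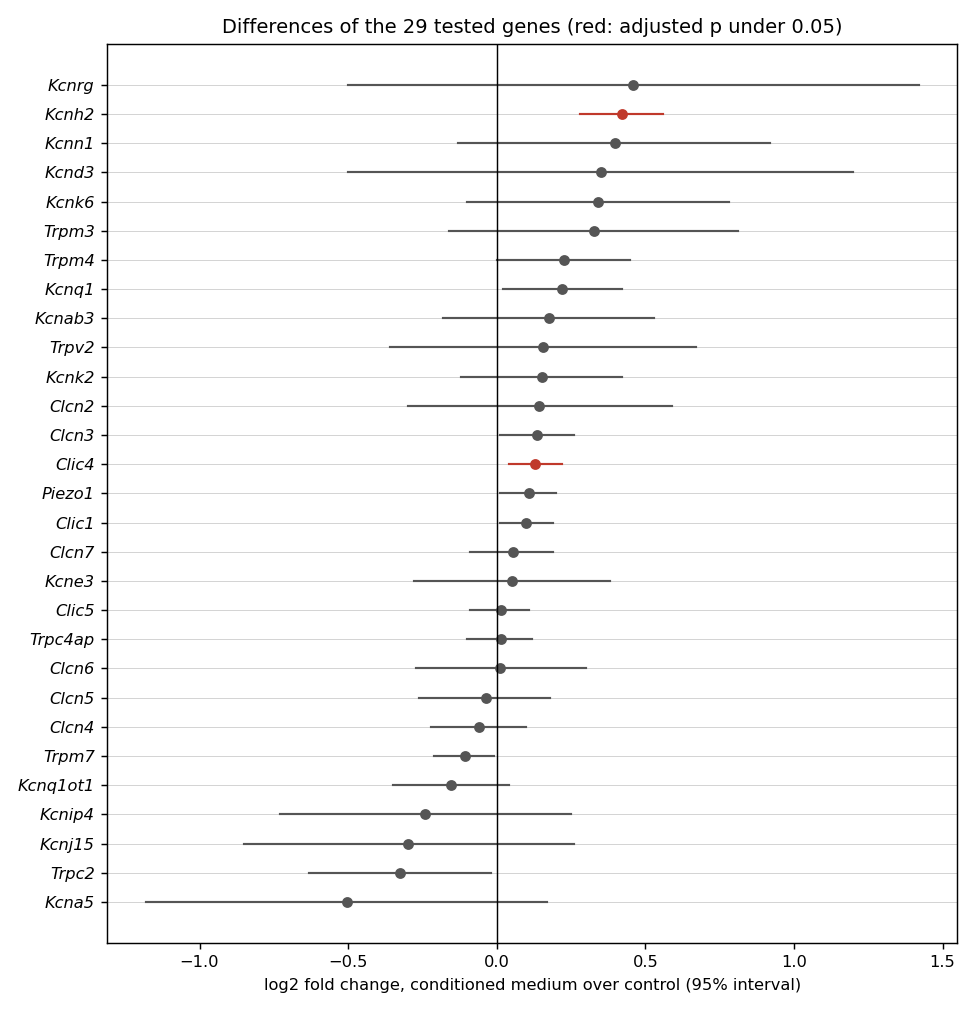
Log2 fold change of conditioned medium over control for the 29 tested genes, with 95% intervals, called genes in red. Kcnh2 at 0.42 stands clear of 0 with a narrow interval, and Clic4 at 0.13 lies among genes of similar size that were not called.

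Genes of ion transport outside the symbol rule showed larger shifts in a few members. Of 85 listed genes with a row 57 were tested, and 9 were higher and 4 lower in conditioned medium (22.8% called, against 16.8% of all genes tested), with a median log2 fold change of 0.09. Ano1, the calcium-activated chloride channel TMEM16A, had 26.9 and 26.1 CPM in conditioned medium and 15.5 and 14.4 CPM in control, 1.77-fold higher (edgeR adjusted p = 3.98e-06). Tmem63a, a mechanosensitive cation channel, had 134 and 131 CPM in conditioned medium and 97.8 and 93.4 CPM in control, 1.38-fold higher (edgeR adjusted p = 1.69e-06). Ano1 and Tmem63a, and also Itpr3, a calcium release channel of the endoplasmic reticulum that was 1.23-fold higher, were called in each of 13 alternatives.

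By list, 1 of 6 TRP relatives was called (Pkd2, 1.11-fold higher), and 2 of 12 genes of store-operated entry and calcium release (Itpr3 and the calcium channel gene Orai2, 1.17-fold higher). Among other chloride and volume channels 2 of 15 were higher, Ano1 and Ttyh3 (1.11-fold), and 2 were lower, the volume-regulated channel subunits Lrrc8a (1.14-fold lower) and Lrrc8d (1.21-fold lower). Tmem63a was 1 of 5 other mechanosensitive genes, and 0 of 3 potassium channel partners were called by edgeR, with 0 at an unadjusted p under 0.05, and 0 by DESeq2. In the list of cotransporters, pumps and their regulators, the ubiquitin ligase gene Nedd4l was 1.18-fold higher. The sodium-potassium-chloride cotransporter gene Slc12a2 was 1.18-fold lower and the kinase gene Sgk1 1.11-fold lower. Pkd2, Orai2, Ttyh3, Lrrc8a, Lrrc8d, Nedd4l and Sgk1 were called neither by DESeq2 nor without either conditioned medium replicate. Pkd2, Orai2, Ttyh3 and Sgk1 were also not called with no count filter, nor Sgk1 with upper-quartile scaling. Slc12a2 was not called without conditioned medium replicate 2, nor were Pkd2, Orai2 and Ttyh3 without control replicate 1.

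**Figure D5:**
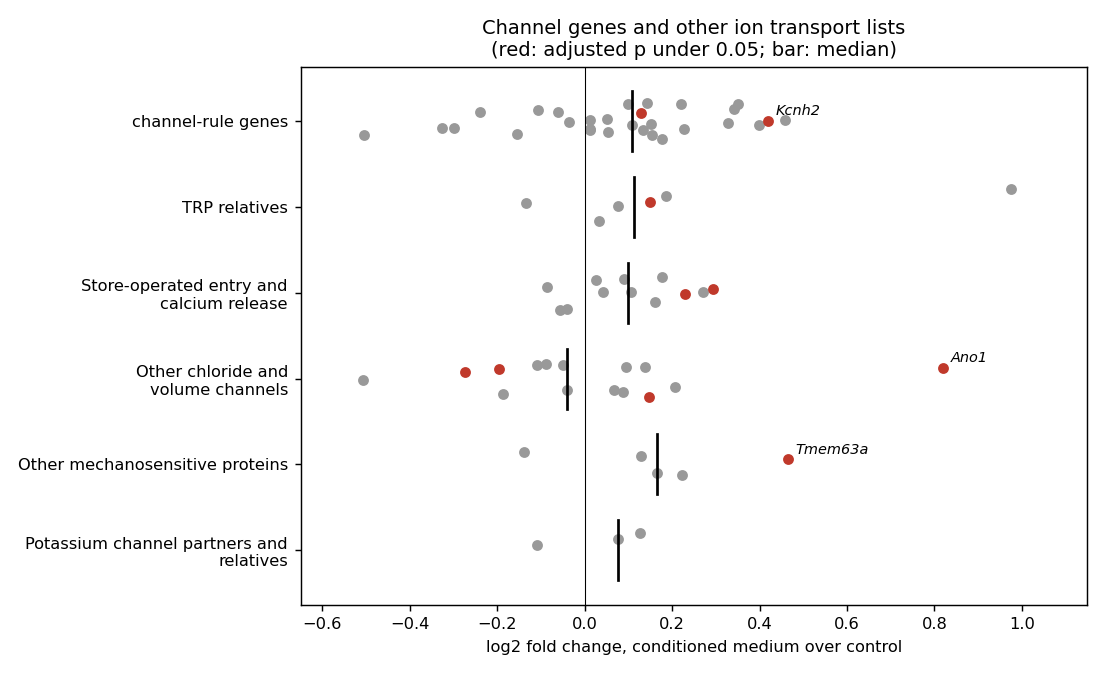
Log2 fold change of conditioned medium over control for the tested channel-rule genes and for 5 lists of other ion transport genes, called genes in red and medians as bars, with 3 called genes named. Ano1 at 0.82 and Tmem63a at 0.47 lie beyond the 2 called genes of the symbol rule.

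Markers of other cell types were summed beside these results, because a bulk library cannot tell fewer cells of a type from less RNA per cell. Macrophage markers summed to 253 and 260 CPM in conditioned medium and 231 and 260 CPM in control, almost all of it Cd68, and the 3 tested, Cd68, Lyz2 and Cd14, had edgeR adjusted p of 0.429, 0.99 and 0.907. Smooth muscle markers summed to 244 and 242 CPM in conditioned medium and 229 and 239 CPM in control, almost all of it Smtn. Smtn was not called (edgeR adjusted p = 0.469), and 5 of the 8 lay under 1 CPM. Pericyte markers summed to 14.1 and 16.1 CPM in conditioned medium and 10.9 and 11.6 CPM in control. Of these Notch3 was called higher, Pdgfrb was not called (log2 fold change 0.067, edgeR adjusted p = 0.825) and Rgs5 had 0 counts. Fibroblast markers summed to 34.1 and 34.2 CPM in conditioned medium and 27.7 and 29.8 CPM in control, with Lum at 0 counts. Most of that sum was Pdgfra, called higher at 31.5 and 32.0 CPM in conditioned medium and 25.3 and 27.0 CPM in control. Col3a1 went the other way, at 1.44 and 1.33 CPM in conditioned medium and 1.96 and 1.85 CPM in control. It was not called (log2 fold change -0.463, edgeR adjusted p = 0.337). Epithelial markers summed to 14.57 and 14.02 CPM in conditioned medium and 7.72 and 8.83 CPM in control, with Krt19 called higher and Cdh1 at 0 counts. Their part in the channel gene differences was not tested.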

How the data were processed

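Total RNA of 4 libraries had been prepared with the TruSeq RNA kit named in the labels, which is not a stranded kit. The authors deposited raw counts per gene under Entrez identifiers. STAR 2.5.2b, featureCounts, Subread 1.4.6-p1 and mm10 are named in the submitters' processing notes, and their settings and annotation are not stated there. Symbols and coordinates came from RefSeq GRCm38.p6 (the mm10 build), which matched 25275 of 27179 rows. The 1904 others held 6.31% of counts and stayed in the fit. Exon lengths were unions of GENCODE M21 exons, and promoters came from RefSeq (105 of 135 members).

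The whole table was fitted with edgeR 4.0.16 in R 4.3.3 (filterByExpr with a minimum count of 10, TMM, quasi-likelihood test, two-sided, Benjamini-Hochberg over 13897 genes). SE was taken from the F statistic (log2 fold change divided by its root), and CPM use TMM-scaled totals. Other settings tried were no count filter, 1 CPM in 2 libraries, scaling by RLE, upper quartile or totals, a replicate block, robust spread, DESeq2 1.42.0, limma-voom (limma 3.58.1) and each library left out. The procedure was tested on simulated data. Floors cover counting error only.

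Named genes are the called members, the 3 highest per kilobase in each class, and 20 well-known members. The other tested members and Kcnip3 were named after their values were seen. Results for 2 listed ion transport genes are not reported here. Members and lists were chosen with earlier results of these data known.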

Additional observations from a re-analysis of the deposited data

How the results depend on the processing

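The count of channel genes called was 2 under 7 of the planned settings that kept all libraries, and 2 with channel and accessory subunits only, a setting chosen after seeing the data. It was 1 with a replicate block and 1 in DESeq2, Kcnh2 in both, and the count of higher genes was then 1. The replicate numbers are not stated to pair the libraries, and same-numbered deviations had a correlation of -0.045 across genes. Under the block Clic4 had an adjusted p of 0.0511. Leaving out each library in turn gave 1 to 5 channel genes called, 1 to 4 of them higher and 0 to 1 lower, with 5 without control replicate 1. DESeq2 called 857 genes in all and 5 of the related ion transport genes, and leaving out a library gave 569 (without conditioned medium replicate 2; 808 without replicate 1) to 3107 genes in all and 4 to 20 related genes. Clic5 ran from -0.021 (without conditioned medium replicate 1; -0.011 without control replicate 2) to 0.05 in log2 fold change over the left-out libraries, Kcne3 from -0.105 to 0.223 and Trpv2 from -0.139 to 0.355, each changing sign and none called. The cause was not tested. Detection in both control libraries stayed between 25 genes at 2 CPM and 30 at 0.5 CPM. Depth limits the 106 genes below the filter, of which 48 had 0 counts and 58 were fitted with no count filter, with 0 called by edgeR (2 at an unadjusted p under 0.05).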
